A study of Mus musculus with 249 samples.

Results

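Snap25, Syt1, Nefm, Tubb3, Eno2 and Map2 are genes of the presynapse, the cytoskeleton and the metabolism of nerve cells. They were taken as the probes that carried 1 of these 6 symbols and no other. Each gene had 1 such probe, which gave 6 of the 23388 probes of the array and 6 of the 11508 genes with a usable value, so agreement between probes of a gene could not be computed. The genes were selected on their log10 ratios, chosen by their levels and by the negative correlations between them. Levels, means against the pool and correlations among the 6 are therefore described without a test, and tests are given for relations with other genes and for the trend with the animal number.

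Brain RNA was measured in 249 F2 mice, males and females, from a cross of C57BL/6J with C3H/HeJ. Both parental strains were ApoE null, so every animal shared that deficiency, and all were given a Western diet between the ages of 8 and 24 weeks. The labels speak of 330 mice, and the 249 arrays are those analysed here. Each animal's RNA, labelled with Cy3, was hybridised on 1 array against a common pool of equal RNA portions of the samples, labelled with Cy5, without a dye swap or a repeat array. A value was read as the log10 ratio of animal to pool, so that 0.301 is a factor of 2 and 0 is the level of the pool. The labels do not state the direction, which was taken from the values. Sftpc, of lung surfactant, was at 1.24 in animal 144 and between -1.65 and -1.12 in the other 248 animals. A pool of the samples can lie far above nearly all of them through rich ones, but not far below nearly all. Whether animal 144 alone accounts for that distance, and the part of a dye difference in it, was not tested. If the ratio ran the other way, every sign of a level would turn, while correlations would stay. The labels divide the animals into no groups, which leaves comparisons across animals, of animals with the pool, and with the number in an animal's label. Spread between animals holds biological and technical variation together, and in whole brain RNA fewer cells of a type and less RNA per cell cannot be told apart. Intensities were not used here, and precision is limited by the number of arrays.

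Array by array, the spread of the probes ranged upwards of an SD of 0.0585, with 0.0764 as the median. The array of animal 144 had an SD of 0.392 and was left out by the rule that chose the probes, which leaves 248 animals. Among these, animal 178 had the largest array SD, 0.258, and animal 336 the third largest, 0.183. Both hold extreme values of the 6 genes. The relations of Snap25 moved most without them. Values without both are given for its highest and lowest genes and its list counts. Most of its pairs are given without animal 178. For its single list genes and its neighbours on the chromosome such values are not given.

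Snap25 and synaptotagmin 1 (Syt1) act together at the nerve terminal, where Snap25 forms the SNARE complex with syntaxin and synaptobrevin to fuse vesicles and Syt1 senses the calcium that triggers release. Nefm is the medium subunit of the neurofilaments that fill large axons, Tubb3 is a beta tubulin typical of neurons, and Map2 binds and stabilises the microtubules of dendrites. Eno2 is the neuronal enolase of glycolysis. All are widely used as markers of nerve cells, and their transcripts are therefore often read as measures of the same thing.

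Of the presynaptic genes, Syt1 spread widely between animals and Snap25 did not. Syt1 had a lowest value of -0.442 (animal 186), a median of 0.00029 and a highest value of 0.325 (animal 316). Its SD was 0.143 (n = 248), above that of 97.3% of genes, and the 95th percentile of animals stood 2.78-fold above the 5th. The low end of Syt1 was a continuous tail, with a second-lowest animal at -0.433. Snap25 ran between -0.560 in animal 178 and 0.174 in animal 151, with a median of 0.00631. Its SD was 0.0587 (n = 248), larger than in 56.9% of genes, and the span between the 5th and the 95th percentile was 1.39-fold. Animal 178 stood alone at the low end of Snap25, since the next animal was at -0.146. Without it the SD of Snap25 was 0.0466.

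Of the cytoskeletal genes, Nefm varied most. Nefm had a lowest value of -0.767 (animal 178), a median of -0.0230 and a highest value of 0.270 (animal 151). Its SD was 0.114 (n = 248), larger than in 94.8% of genes, and it spanned 2.24-fold between the 5th and the 95th percentile. The second-lowest animal was at -0.403, and without animal 178 the SD was 0.104. Tubb3 was measured in 247 of these animals, with a lowest value of -0.542 in animal 336, a median of 0.00505 and a highest value of 0.220 in animal 178. Its SD was 0.0753 (n = 247), larger than in 77.2% of genes. The second-lowest animal was at -0.231, and the SD was 0.0670 without animal 336. Map2 ran between -0.113 in animal 207 and 0.346 in animal 178, with a median of 0.0126 and an SD of 0.0495 (n = 248), larger than in 41.5% of genes. The second-highest animal was at 0.180, so the high end of Map2 also rested on animal 178, and the SD was 0.0448 without it.

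Eno2 had no animal that stood apart. Its lowest value was -0.154 (animal 82), its median -0.0240 and its highest 0.228 (animal 290), with a second-highest animal at 0.226. Its SD was 0.0709 (n = 248), larger than in 72.5% of genes, and the 5th and 95th percentiles lay 1.69-fold apart.

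**Figure D1:**
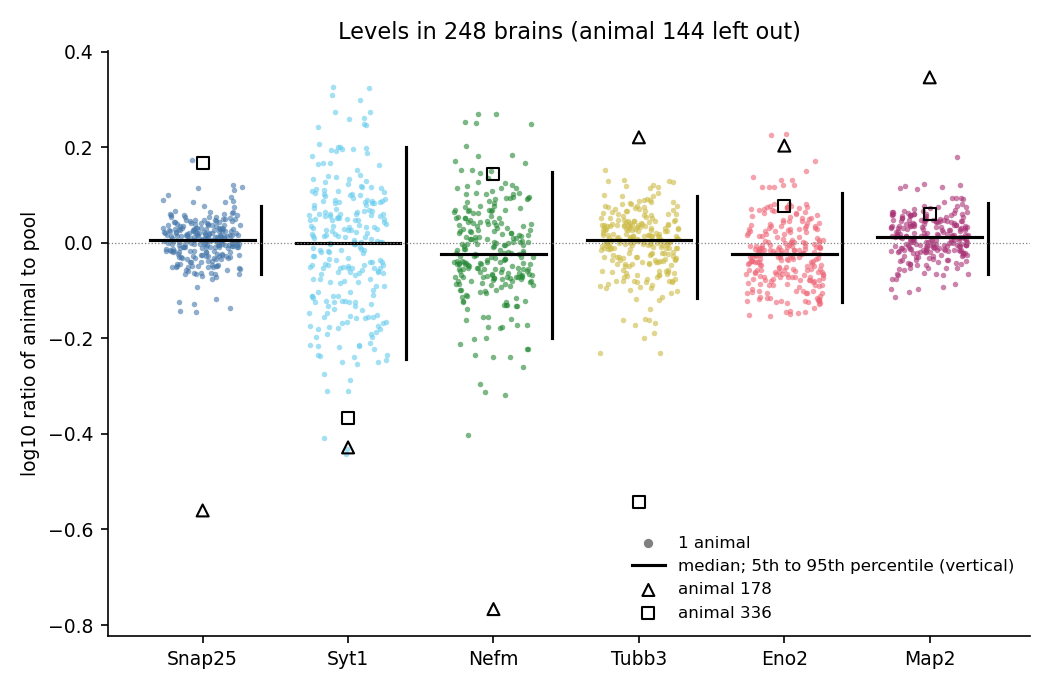
Log10 ratio of animal to pool (vertical axis) for the 6 genes (horizontal axis), 1 point per animal, with the median as a horizontal bar and the 5th to 95th percentile as a vertical bar beside the points. Animal 178 (triangle) lies at -0.560 for Snap25, -0.767 for Nefm and 0.346 for Map2, and animal 336 (square) at -0.542 for Tubb3, each away from the other animals.

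The 6 genes moved in different directions on single arrays. On the array of animal 178 Snap25 was at -0.560, Syt1 at -0.428 and Nefm at -0.767, while Tubb3 was at 0.220, Eno2 at 0.203 and Map2 at 0.346. In animal 336 Tubb3 was at -0.542 and Syt1 at -0.367, whereas Snap25 was at 0.166 and Nefm at 0.144. On the omitted array of animal 144 all 6 were low, at -1.99 for Snap25, -1.82 for Nefm, -1.48 for Tubb3, -1.08 for Eno2, -0.941 for Syt1 and -0.370 for Map2. The lung transcript Sftpc was at 1.24 on that array, and at -1.12 or lower in the other animals. Whether the RNA on that array was that of brain was not tested.

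Promoter sequence was held for 4 of the 6 genes, Map2, Tubb3, Syt1 and Eno2, from RefSeq on GRCm38.p6. The 250 bases before the annotated start are shown for these 4 genes. A relation of their letters to the variation between animals was not tested. Capitals mark matches on either strand to the GC box GGGCGG, the CCAAT box CCAAT and the TATA box TATAAA. Of 32851 mouse promoter windows of that length, 32.7% hold the GC box, 33.8% the CCAAT box and 12.4% the TATA box.
Map2, chr1:66175079-66175328, plus strand: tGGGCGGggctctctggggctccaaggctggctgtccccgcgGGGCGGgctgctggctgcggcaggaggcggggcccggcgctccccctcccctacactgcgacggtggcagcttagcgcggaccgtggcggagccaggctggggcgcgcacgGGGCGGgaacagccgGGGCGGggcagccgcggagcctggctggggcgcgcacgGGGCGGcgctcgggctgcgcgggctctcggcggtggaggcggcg
Tubb3, chr8:123411303-123411552, plus strand: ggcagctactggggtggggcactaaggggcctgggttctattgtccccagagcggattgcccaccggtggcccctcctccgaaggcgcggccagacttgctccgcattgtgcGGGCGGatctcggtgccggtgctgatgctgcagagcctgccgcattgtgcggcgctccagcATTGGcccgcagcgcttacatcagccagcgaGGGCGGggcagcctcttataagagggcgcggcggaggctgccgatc
Syt1, chr10:109010976-109011225, minus strand: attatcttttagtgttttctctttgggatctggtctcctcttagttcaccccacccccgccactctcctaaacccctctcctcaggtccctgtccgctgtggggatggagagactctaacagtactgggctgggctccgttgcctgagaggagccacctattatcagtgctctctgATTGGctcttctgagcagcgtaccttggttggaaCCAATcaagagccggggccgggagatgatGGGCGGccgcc
Eno2, chr6:124769674-124769923, minus strand: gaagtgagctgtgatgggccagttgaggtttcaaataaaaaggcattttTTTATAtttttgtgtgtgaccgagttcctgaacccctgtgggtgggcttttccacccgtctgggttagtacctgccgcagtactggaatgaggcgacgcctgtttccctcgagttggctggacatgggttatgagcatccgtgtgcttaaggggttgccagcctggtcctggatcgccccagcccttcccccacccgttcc
The Map2 window was 81.2% G and C, more than 99.1% of the windows, and held 5 GC boxes. The Tubb3 window was 68.0% G and C and held 2 GC boxes and 1 CCAAT box. The Syt1 window held 1 GC box and 2 CCAAT boxes at 56.4% G and C, and a second annotated Syt1 window, 42.8% G and C, held none of these letters. The Eno2 window, 54.4% G and C, held no GC box and 1 TATA box on the reverse strand, 201 to 196 bases before the start. None of the 5 windows held TTCAGCACC, the left end of the site of the neuronal repressor REST, which 0.301% of all windows hold, or the cyclic AMP response element TGACGTCA (1.55%). A match describes letters and no use of a site.

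The means of the 6 genes differed from the pool by less than the SD between animals, which describes single animals and not the precision of a mean. Of all genes 13.5% had a mean farther from the pool than Nefm, and 14.2% one farther than Eno2. Map2 averaged 0.0138 ± 0.0495 (SD, n = 248), which is 1.03-fold of the pool. Eno2 averaged -0.0205 ± 0.0709 (SD, n = 248), or 0.954-fold, and 163 of the 248 animals lay below the pool. Nefm averaged -0.0210 ± 0.114 (SD, n = 248), or 0.953-fold. Snap25 averaged 0.00193, Syt1 -0.0152 and Tubb3 -0.00261. Of all 11508 genes limma called 39.8% higher and 15.6% lower than the pool at an adjusted p under 0.05. Levels were part of the choice of the 6, and nothing is read from their place among these. With 1 dye order a dye difference and a difference between animals and pool cannot be told apart.

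None of the 6 genes was called for a trend with the animal number, by limma with Benjamini-Hochberg adjustment, where 6.46% of all genes were called as rising and 10.3% as falling. The slopes per 100 numbers ran between -0.0074 for Eno2 and 0.0148 for Nefm on the log10 scale (limma adjusted p between 0.118 and 0.712). The nearest to the threshold was Nefm, which passed after quantile normalization of the arrays with a slope of 0.0161.

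Of the 15 pairs of the 6 genes 9 had a negative Pearson r over 248 animals, and the median r was -0.169. Over all 66211278 pairs of genes 50.2% were negative. An r at or under -0.3 was found in 5 of the 15 pairs, against 10.3% of all pairs of genes, and an r at or over 0.3 in 1, against 11.1%. These counts were part of the choice of the genes and nothing is read from them.

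The lowest r was that of Syt1 with Eno2, -0.463 (Spearman rho -0.426), and it was -0.450 in the lower-numbered and -0.477 in the higher-numbered animals. Of the 248 animals 92 lay on the same side of both medians. Snap25 with Eno2 had an r of -0.413 (rho -0.442), which was -0.374 without animal 178. Snap25 with Map2 had an r of -0.430 (rho -0.234), but -0.235 without animal 178. The presynaptic partners Snap25 and Syt1 had an r of 0.229 (rho 0.158), which was 0.150 without animal 178, 0.342 in the lower-numbered and 0.067 in the higher-numbered animals.

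Among the cytoskeletal genes all 3 correlations were negative. Nefm with Tubb3 had an r of -0.384 (rho -0.364), Nefm with Map2 -0.308 (rho -0.158) and Tubb3 with Map2 -0.258 (rho -0.324). Without animal 178 they were -0.341, -0.158 and -0.382. The highest r of the 15 was that of Snap25 with Nefm, 0.553, with a rho of 0.296 and an r of 0.414 without animal 178. The remaining pairs lay between -0.211 for Snap25 with Tubb3, where rho was -0.0278, and 0.155 for Syt1 with Map2, where rho was 0.293. Without animals 178 and 336 the r of Snap25 with Tubb3 was -0.0232. With the array of animal 144 added 14 of the 15 pairs were positive and Snap25 with Nefm had an r of 0.807.

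**Figure D2:**
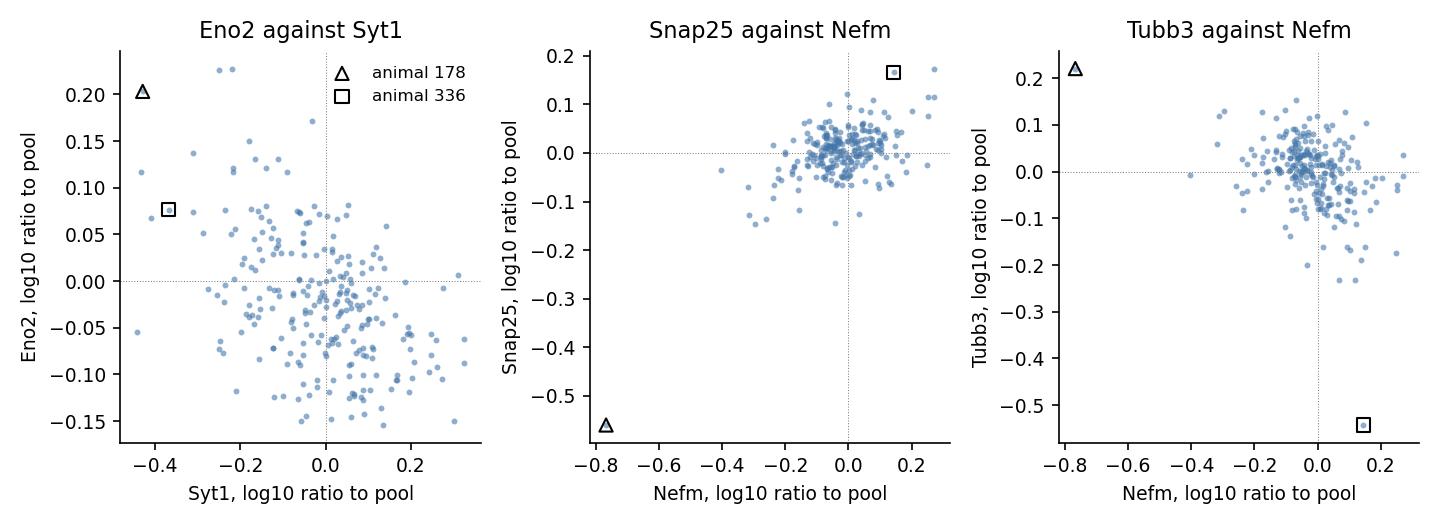
Log10 ratios to the pool of 3 pairs of genes, 1 point per animal, with animals 178 (triangle) and 336 (square) marked. The cloud of Eno2 against Syt1 slopes down throughout (r -0.463), while the r of 0.553 for Snap25 with Nefm draws on animal 178 and is 0.414 without it.

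**Figure D3:**
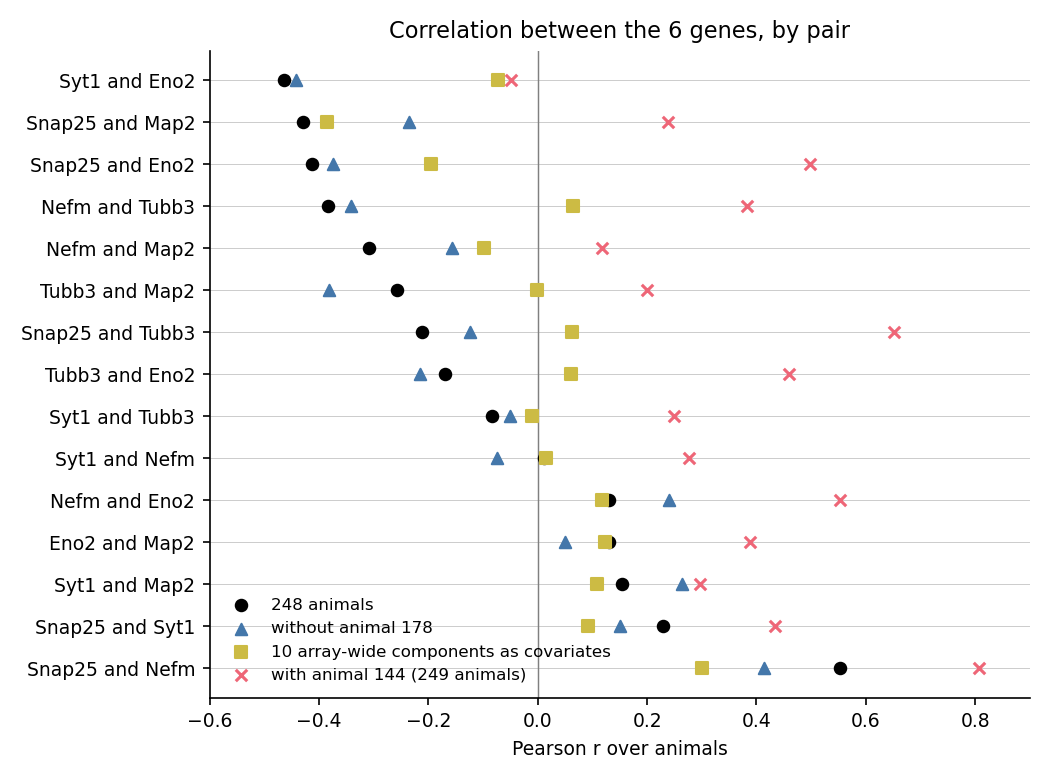
Pearson r (horizontal axis) for the 15 pairs of the 6 genes (vertical axis) over 248 animals (circles), without animal 178 (triangles), with 10 array-wide components as covariates (squares) and with animal 144 included (crosses). Crosses lie above 0 for 14 pairs and circles below 0 for 9.

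The share of variance held by array-wide components differed between the 6 genes. Principal components were taken from all genes except the 6, and the first 2 held 13.7% and 11.2% of the variance. The first component correlated at 0.775 with Nefm, 0.588 with Snap25 and -0.639 with Tubb3. The second correlated at 0.646 with Eno2 and -0.581 with Syt1, and at 0.607 with the SD of the array. The first 10 components held 84.6% of the variance of Eno2, 75.1% of Nefm, 74.1% of Tubb3, 60.5% of Snap25, 45.4% of Map2 and 45.1% of Syt1, against a median of 59.1% over the other genes. The first 2 held 1.86% of the variance of Map2, against a median of 24.9% over the other genes.

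With the 10 components as covariates, Syt1 with Eno2 had an r of -0.0719 and Nefm with Tubb3 one of 0.0652. Snap25 with Map2 remained at -0.386, the only pair still at or under -0.3, and Snap25 with Nefm was at 0.301. Eno2 correlated at 0.534 with the median of the array and at 0.342 (rho 0.250) with its SD. Syt1 was at -0.418 with the median and -0.386 (rho -0.228) with the SD, and Snap25 at -0.391 with the median and -0.268 (rho -0.109) with the SD. The part of array quality in the negative relations was not tested.

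Each of the 6 genes was related to many others, in a fit of every gene on its level with limma and adjustment over 11502 genes. A gene was called at an adjusted p under 0.05. With the 10 components as covariates the shares of genes called positively and negatively were 14.7% and 11.7% for Snap25, 8.09% and 8.09% for Syt1, 14.8% and 11.2% for Nefm, 10.5% and 9.34% for Tubb3, 14.1% and 15.8% for Eno2, and 20.5% and 19% for Map2. The 5 genes with the highest and the 5 with the lowest r were named for each. They were chosen for their r, which is a description and was not tested again. With the 10 components as covariates 59 of these 60 kept their sign, all but Pura with Eno2, and 53 were still called.

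More measured genes of 2 synaptic lists fell than rose with Snap25. It was related positively to 25.5% of genes and negatively to 33.1%. The highest r were those of Upf2, a factor of nonsense-mediated decay (0.773), Hnrnpa2b1, an RNA-binding protein (0.771), the cohesin subunit Smc3 (0.766), the polycomb protein Eed (0.750) and the topoisomerase Top2b (0.748). The lowest were those of the kinase Dapk3 (-0.720), Apbb1, which binds the amyloid precursor protein (-0.718), Cited1 (-0.713), Zdhhc12 (-0.707) and Ckap4 (-0.688). Without animals 178 and 336 the highest 5 lay between 0.617 (Smc3) and 0.668 (Eed), and the lowest 5 between -0.685 (Apbb1) and -0.563 (Dapk3).

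Of 34 measured genes of synaptic vesicles and release, 8 rose with Snap25 and 18 fell, with a median r of -0.190 against -0.0322 over all genes. Without animals 178 and 336 these counts were 1 and 19, and with the 10 components as covariates 3 and 6. Over all genes 14.7% rose and 11.7% fell with Snap25 in the fit with components. Shares over all genes without animals 178 and 336 are not given, here or below. Snap25's own partners in the fusion complex, syntaxin Stx1a and synaptobrevin Vamp2, had an r of -0.294 and -0.255 (limma adjusted p = 7.99e-06 and 0.000144). The vesicle protein Syp was at -0.481 (limma adjusted p = 1.07e-14), while the active zone scaffold Pclo was at 0.521. The granule protein Scg2, counted in a list of pan-neuronal genes and not among the release genes, was at 0.665. Of 19 measured genes of the postsynaptic density 2 rose with Snap25 and 13 fell (median r -0.185). Without animals 178 and 336 these were 2 and 12, and with the components 2 and 3.

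Syt1 was related positively to 23.9% of genes and negatively to 32%. Its highest r were those of the exocyst subunit Exoc4 (0.678), Pawr (0.646), Abi2, a regulator of actin (0.634), Mier1 (0.633) and the kinase Tlk1 (0.629). Its lowest were those of Phlda1 (-0.636), Wwox (-0.604), Smim11 (-0.585), Smn1, which assembles splicing particles (-0.581), and Timm10, of mitochondrial import (-0.574). Of the release genes 13 rose with Syt1 and 5 fell, among them complexin Cplx1 at 0.471 and the related Syt11 at 0.478. The release counts were 6 and 2 with the 10 components as covariates. Of 25 measured genes of the neuronal cytoskeleton 8 rose with Syt1 and 3 fell. Stathmin Stmn1, which binds free tubulin, was at 0.606, and the alpha tubulin Tuba1a at 0.477. Of 8 measured genes of oxidative phosphorylation none rose with Syt1 and 6 fell (median r -0.422, against -0.0371 over all genes), and with the components none rose and none fell.

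Genes of oxidative phosphorylation, which mostly fell with Syt1, rose with Eno2. Syt1 and Eno2 correlated at -0.463, and negative correlations were part of their choice, so the contrast is not a separate result. Eno2 was related positively to 37% of genes and negatively to 27.4%, and 7 of the 8 genes of that list rose with it and none fell (median r 0.517, against 0.0332 over all genes). The complex I subunit Ndufa1 was at 0.678 with Eno2 and -0.416 with Syt1, and the ATP synthase subunit Atp5g1 at 0.614 with Eno2 and -0.427 with Syt1. Tuba1a was at -0.639 with Eno2 (limma adjusted p = 1.85e-28). Of 14 measured genes of glycolysis, the pathway of Eno2, 7 rose and 3 fell with it (median r 0.0963), with pyruvate kinase Pkm at 0.528 and lactate dehydrogenase Ldha at -0.356. The glycolysis counts were 8 and 0 with the 10 components as covariates, and those of oxidative phosphorylation 7 and 0.

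The genes nearest to Eno2 were Supt5, of transcription elongation (0.873), Rrp1, of ribosome assembly (0.872), the vesicular transporter of GABA Slc32a1 (0.823), the microtubule-binding Map4 (0.813) and Dnajb2 (0.813). The r of Slc32a1 was 0.0704 with the 10 components as covariates. The lowest were those of a gene listed as CNOT6L, a deadenylase subunit (-0.876), one listed as ZBED4 (-0.815), Pura (-0.789), Runx1t1 (-0.786) and the capping enzyme Rngtt (-0.782). Of the release genes 13 rose with Eno2 and 10 fell, with Vamp2 at 0.747. Of the cytoskeletal list 12 rose with Eno2 and 6 fell.

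Nefm and Tubb3 had many related genes in both directions. Nefm was related positively to 34.2% of genes and negatively to 35.1%, Tubb3 to 33.3% and 32.4%. The highest r with Nefm were those of Rnf103 (0.814), Insig2, which retains sterol sensors in the endoplasmic reticulum (0.791), Emb (0.782), Ube2e1 (0.778) and Oxr1 (0.774), and the lowest those of Dph1 (-0.809), Psd (-0.806), Zfpl1 (-0.791), Mtf1 (-0.784) and Copg2 (-0.775). The highest with Tubb3 were those of Acbd6 (0.829), Cstf1, of mRNA cleavage (0.822), Lepre1 (0.797), Fbxo31 (0.784) and Cyhr1 (0.782), and the lowest those of the kinase Tbk1 (-0.790), the nuclear pore subunits Nup205 (-0.785) and Nup54 (-0.772), Odf2l (-0.783) and Rasa1 (-0.782).

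Microglial markers were related to Tubb3 and Nefm with opposite signs. Tubb3 and Nefm correlated at -0.384, and negative correlations were part of their choice, so the opposite signs are not a separate result. Of 9 measured, 6 rose with Tubb3 and none fell (median r 0.392, against 0.0112 over all genes), and none rose with Nefm and 6 fell (median r -0.411, against -0.00963 over all genes). With Snap25 none rose and 8 fell (median r -0.278), also without animals 178 and 336. Tmem119, a marker of resident microglia, was at 0.682 with Tubb3 and -0.577 with Nefm. With the 10 components as covariates 1 rose and 2 fell with Tubb3, none rose and 3 fell with Nefm, and none rose and 1 fell with Snap25. The part of microglia in the relation of Tubb3 and Nefm was not tested.

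Of the 25 genes of the cytoskeletal list 7 rose with Nefm and 8 fell, and 10 rose with Tubb3 and 5 fell. The heavy neurofilament subunit Nefh had an r with Nefm of 0.173 (limma adjusted p = 0.00985), which was 0.619 with the 10 components as covariates. Peripherin Prph was at 0.334 with Nefm and 0.414 with the 10 components, and internexin Ina at -0.202 and 0.184. The growth cone protein Gap43 was at 0.660 with Nefm and 0.111 with the 10 components. With Tubb3 the alpha tubulins Tuba1a, Tuba1b and Tuba4a had an r of 0.425, 0.354 and 0.457, and the beta tubulin Tubb5 0.441. The beta tubulin Tubb2a was at 0.0112 (limma adjusted p = 0.885). Tubulin genes are close in sequence, and cross-hybridisation between their probes was not tested. Of the postsynaptic density 3 genes rose with Tubb3 and 7 fell, with the glutamate receptor subunit Gria2 at -0.739.

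Without covariates Map2 was related to fewer genes than the others, 21.7% positively and 17.2% negatively, and most of the postsynaptic density rose with it. With the 10 components as covariates its shares, 20.5% and 19%, were the highest of the 6. Of 19 measured genes of that list 14 rose with Map2 and none fell (median r 0.222, against 0.00445 over all genes). The scaffolds Shank1 and Dlg4 were at 0.379 and 0.361, and the glutamate receptor subunits Gria3 and Grin2b at 0.371 and 0.345. Without animals 178 and 336 the counts were 12 and 1, and with the 10 components as covariates 6 and 4. Of the release genes 16 rose with Map2 and 1 fell (median r 0.140), and with the components 11 and 3. Its nearest gene was the kinesin heavy chain Kif5c (0.764), followed by the 14-3-3 protein Ywhag (0.647), Pdzd2 (0.625), the kinase Akt2 (0.620) and Zbtb21 (0.573). Kif5c kept an r of 0.656 with the 10 components as covariates and Ywhag one of 0.668. The lowest r were those of Akip1 (-0.693), Nipsnap2 (-0.649), Brd7 (-0.621), Rrbp1 (-0.597) and the zinc transporter Slc39a6 (-0.581). Of the cytoskeletal list 11 rose with Map2 and 6 fell, with the microtubule-associated Map1b at 0.316 and Map1a at -0.389. Animal 178 held the highest value of Map2. For the release and cytoskeletal lists and the single genes named with Map2, values without animals 178 and 336 are not given.

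**Figure D4:**
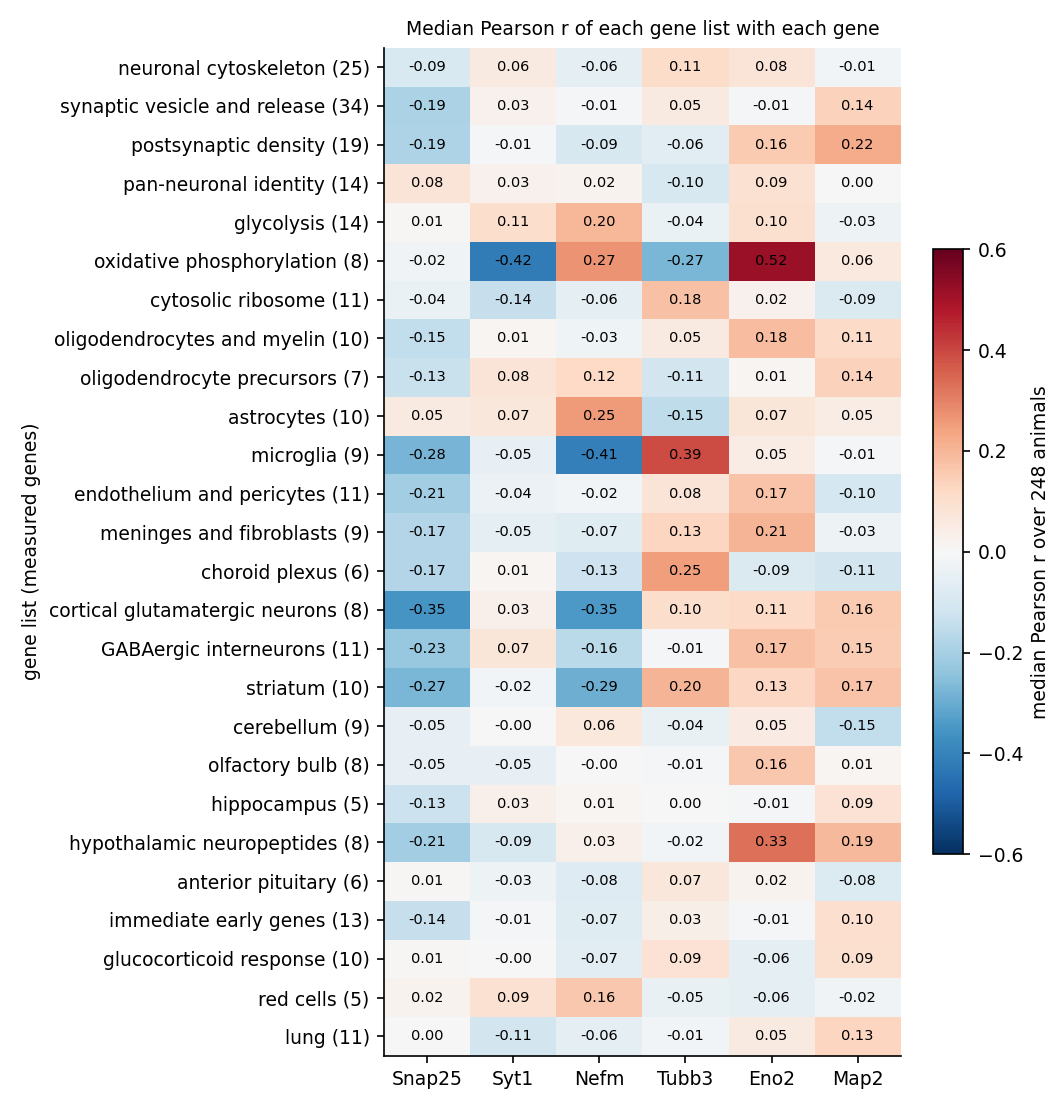
Median Pearson r over 248 animals of each gene list (rows, with the number of measured genes) with each of the 6 genes (columns), as colour and number. Oxidative phosphorylation stands at 0.52 with Eno2 and -0.42 with Syt1, microglia at 0.39 with Tubb3 and -0.41 with Nefm, and the postsynaptic density at 0.22 with Map2.

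In an F2 cross neighbouring genes are inherited together, and the genes beside the 6 on their chromosomes were examined, 5 measured genes on each side. Called positively were 5 of 10 for Snap25, Syt1 and Eno2, 6 for Map2 and 7 for Nefm and Tubb3, and called negatively 2 for Snap25 and Syt1, 1 for Nefm, Tubb3 and Map2, and 0 for Eno2. Over all genes the positive shares were 25.5% for Snap25, 23.9% for Syt1, 37% for Eno2, 21.7% for Map2, 34.2% for Nefm and 33.3% for Tubb3. The negative shares were 33.1% for Snap25, 32% for Syt1, 27.4% for Eno2, 17.2% for Map2, 35.1% for Nefm and 32.4% for Tubb3. With the 10 components as covariates 0 of 10 were called positively for Snap25, 1 for Tubb3, 2 for Nefm and Eno2, and 4 for Syt1 and Map2, and negatively 2 for Tubb3 and 0 for the other 5. The positive shares over all genes in that fit were 14.7% for Snap25, 10.5% for Tubb3, 14.8% for Nefm, 14.1% for Eno2, 8.09% for Syt1 and 20.5% for Map2. Its negative shares were 11.7% for Snap25, 9.34% for Tubb3, 11.2% for Nefm, 15.8% for Eno2, 8.09% for Syt1 and 19% for Map2. The gene next to Syt1 on chromosome 10, Pawr, which encodes a promoter of apoptosis, was also its second-highest of all genes. Its r of 0.646 (rho 0.653) was 0.556 with the 10 components as covariates, 0.601 in the lower-numbered and 0.691 in the higher-numbered animals. On the other side of Syt1, Nav3 was at 0.380, and at -0.0991 with the components.

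For the other 5 genes the nearest measured genes were less close than Pawr was to Syt1. Those of Map2 on chromosome 1, Pikfyve and Unc80, were at 0.314 and 0.292, and at 0.498 and 0.0683 with the components. Those of Snap25 on chromosome 2, Ankef1 and Mkks, were at 0.317 and 0.423, and at -0.0354 and 0.0261 with the components. Those of Tubb3 on chromosome 8, Mc1r and Def8, were at 0.236 and 0.428, and at 0.119 and 0.154 with the components. Those of Nefm on chromosome 14, Dock5 and Adam7, were at 0.098 and 0.136, and those of Eno2 on chromosome 6, Atn1 and Lrrc23, at -0.0569 and 0.0446. Within 5 places of Eno2, Phb2 was at 0.734 and Grcc10 at 0.558, and at 0.607 and 0.461 with the components (limma adjusted p = 2.9e-22 and 7.4e-12), 2 genes singled out after their values were seen. The highest r without covariates within 5 places was 0.734 for Tubb3 also, 0.603 for Nefm, 0.423 for Snap25 and 0.320 for Map2. Genotypes were not used here, so inheritance itself was not tested.

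**Figure D5:**
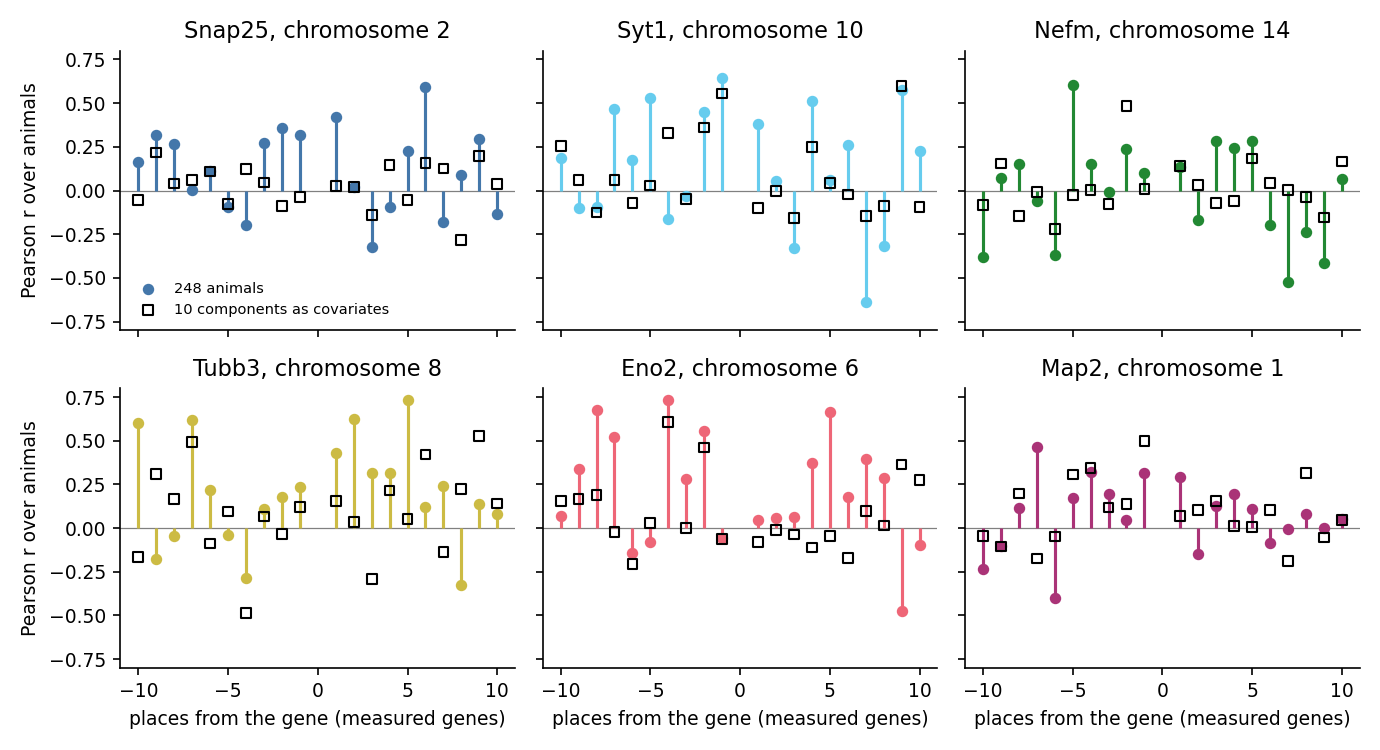
Pearson r over 248 animals (vertical axis) of the 6 genes with the measured genes up to 10 places away on the chromosome (horizontal axis), as coloured points with stems, and with 10 array-wide components as covariates, as open squares. Pawr, 1 place before Syt1, stands at 0.646 and 0.556, and Phb2, 4 places before Eno2, at 0.734 and 0.607.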

How the data were processed

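The authors deposited 1 table of log10 ratios of animal (Cy3, per the labels) to pool (Cy5, per the labels) for 249 arrays. How the arrays were scanned, background-corrected and normalized is not given in the sources used here. Log base and direction were taken from the values. Each gene was given the average of those probes that name it alone and have values for 90% of the arrays or more (13444 probes), with gaps, 0.710% of all values, filled by the probe's mean, as for Tubb3 in animal 322. Where 1 sample carried conflicting numbers in its title and source name, the number in the source name was kept. Relations, means against the pool and trends were fitted with limma 3.58.1 (R 4.3.3) on all genes, two-sided, with Benjamini-Hochberg adjustment at 0.05. Array-wide components came from all genes but the 6 studied. Members, the 26 gene lists (410 entries, 291 measured) and the tests were chosen with earlier results of these data known, and the component adjustment, the omission of animals 178 and 336 and the window of neighbours after the values were seen. Named were the 6 genes, the 5 genes of highest and of lowest r with each, and the nearest measured gene on each side. Single list genes given with their r, Sftpc, Phb2, Grcc10, Trhde and Galnt2 were singled out after their values were seen. On simulated data for the fit on a gene's level, over 11502 genes, 92% of relations made with r 0.3 were recovered. Of those with r 0.2, 52% were recovered, and of those with r -0.2, 40%, with 7 false calls. These false calls do not measure how many calls in the animals came through array-wide components. Other settings tried were the arrays used, centring, quantile normalization, covariates, probe choice, missing values and ranks. Gene order and promoters follow GRCm38.p6 from RefSeq.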

Additional observations from a re-analysis of the deposited data

How the results depend on the processing

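The array of animal 144 decided the sign of most pairs. With it, r was 0.652 for Snap25 with Tubb3, 0.497 for Snap25 with Eno2, 0.238 for Snap25 with Map2, 0.383 for Nefm with Tubb3, 0.117 for Nefm with Map2, 0.459 for Tubb3 with Eno2 and 0.20 for Tubb3 with Map2, 1 of 15 pairs was negative and 0 lay at or under -0.3, and the SD was 0.139 for Snap25, 0.161 for Nefm, 0.120 for Tubb3, 0.0974 for Eno2 and 0.0550 for Map2. Without the 12 arrays of largest SD, Snap25 with Tubb3 had an r of 0.0476 and the SDs were 0.0427 for Snap25, 0.0984 for Nefm, 0.0640 for Tubb3 and 0.0448 for Map2. Without animal 178 the SDs were 0.0466 for Snap25, 0.104 for Nefm and 0.0448 for Map2, and without animal 336 that of Tubb3 was 0.0670. The SD of Snap25 was 0.0672 in the lower-numbered and 0.0482 in the higher-numbered animals, where 4467 genes were related to it, against 6741 in all animals. After quantile normalization 3 pairs lay at or under -0.3, Eno2 with Map2 had an r of -0.0557, also -0.0300 by ranks, and the SDs were 0.0472 for Snap25, 0.103 for Nefm, 0.0683 for Tubb3 and 0.0446 for Map2.

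With 2 array-wide components as covariates, r was 0.211 for Snap25 with Tubb3 and 0.287 for Nefm with Tubb3, and 2121 genes were related to Syt1 and 3815 to Nefm, against 6430 and 7974 without covariates. With 10 components r was 0.0625 for Snap25 with Tubb3, 0.0652 for Nefm with Tubb3 and 0.0600 for Tubb3 with Eno2, 1 pair lay at or under -0.3, and 3040 genes were related to Snap25, 1862 to Syt1, 2997 to Nefm, 2280 to Tubb3 and 3435 to Eno2. Map2 went the other way, with 2359 genes related positively and 2191 negatively, against 2497 and 1975 without covariates. The cause of these differences was not tested. The trends kept their side of the threshold in 53 of 54 repeats. No value exists for agreement of probes under any setting, because each gene had 1 probe. No paired analysis was possible because the animals form 1 group. There are no repeat arrays and no intensities were used, so technical error and signal over background are unknown here.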

Other observations

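Cerebellar markers were related negatively to the cytoskeletal genes, and some also to Eno2, Syt1 and Snap25, in the fit with array-wide components as covariates. With 10 components as covariates 8 of 9 measured markers fell with Nefm and none rose (median r -0.250), 6 fell with Tubb3 and none rose (median r -0.273), and 5 fell with Map2 and none rose (median r -0.167). Over all genes 11.2% fell with Nefm in that fit, 9.34% with Tubb3 and 19% with Map2. In the same fit Gabra6 (-0.192), Calb1 (-0.228) and Zic1 (-0.218) fell with Eno2, while Gabrd (0.264) rose. Cbln1 (-0.193) and Pcp2 (-0.203) fell with Syt1. Gabrd (-0.297) fell with Snap25, and Cbln3 (0.166) rose. Over all genes 15.8% fell with Eno2, 8.09% with Syt1 and 11.7% with Snap25. Without covariates 3 rose and 1 fell with Nefm, and 1 rose and 3 fell with Tubb3. Those called with Map2 without covariates were Gabra6 (-0.190), Calb1 (-0.198) and Zic1 (-0.230), which fell, and Gabrd (0.217), which rose. The developmental factor Zic1 was at -0.397 with Nefm and the cerebellin Cbln3 at -0.348 in the fit with components, against 0.169 and -0.0140 without. The share of cerebellum in each sample was not tested.

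Myelin genes were related to Tubb3 in the same fit. Of 10 measured, 7 rose with Tubb3 and none fell (median r 0.194), where 10.5% of all genes rose, and without covariates 2 rose and 2 fell. With Nefm, Mobp (0.448), Mag (0.390) and Mal (0.282) rose in the fit with components, where 14.8% of all genes rose. The rest of the list was not called with Nefm. Among genes farther along the chromosomes, chosen after their values were seen, Trhde, 9 places from Syt1, had an r of 0.573, and of 0.599 with the components. Galnt2, 9 places from Tubb3, had an r of 0.137, and of 0.527 with the components.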
